A study of Arabidopsis thaliana with 12 samples.

Results

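AT3G06220, AT4G31615 and AT1G26680 are 3 protein-coding Arabidopsis genes assigned to the B3 domain transcription factors of the REM type, each measured by 1 probe set of an Affymetrix array whose annotation named 13333 different genes. They were chosen by locus, for a signal that was high in the dissected shoot apex and low in whole plants, so the contrast of apex with whole plant is described here and not tested. Signals of all 4 groups were in view when they were chosen, so the tests within the apex are not independent of that choice. The gene table used for names lists AT4G31615 as REM35, reproductive meristem 35, and gives no REM name for the other two, whose place in the family comes from the rule that chose them.

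The B3 domain is a plant-specific DNA-binding fold, shared by the auxin response factors (ARF), the LAV group of seed maturation regulators, the RAV group and the REM group. REM genes take their name from reproductive meristem, after a founding member found in the meristem of cauliflower curd. VRN1, which keeps the floral repressor FLC silent after cold, and VERDANDI, which acts in the ovule, are REM genes with a known role. The gene table used here was read for names, type and position only. It does not tell whether these 3 genes have a known role.

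The study used Arabidopsis thaliana of ecotype Col-0 in 4 groups of 3 arrays. The mock apex group is the part around the shoot apical meristem, cut out with a micro knife from plants grown with the solvent DMSO (0.1%), and the mock whole plant group is undissected plants grown the same way. The L-AOPP apex group was cut from plants grown on 50 µM L-AOPP, a phenylalanine ammonia-lyase inhibitor that the series studies as an inhibitor of auxin biosynthesis, and the L-AOPP with IAA apex group from plants grown on 50 µM L-AOPP with 10 nM of the auxin indole-3-acetic acid (IAA). No genotype other than Col-0 is given, and all plants grew under continuous light, for 4 days by the sample labels, while the series text gives another age. The DMSO content of the L-AOPP plates is not given, and no label says whether replicates came from separate plates, so the p-values rest on a spread between samples that may be technical only. A whole plant contains its own apex, so the whole plant group dilutes apex RNA and does not stand for tissue without it.

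Values are linear probe set signals that the authors deposited already scaled to a common level per array, with array medians of 166 to 193 and no detection calls. Signals below a floor of 20, which held 15.7% to 23.7% of the probe sets of an array, have no order here and were set to 20 before log2 was taken. The 25S rRNA control read 164 on mock apex replicate 3 and at least 5170 on each of the other 11. The GAPDH control, read at its 3′ and 5′ ends as a sign of RNA quality, had a log2 ratio (3′ over 5′) of 1.78 ± 0.36 (SD, n = 3) in mock apex, 1.5 ± 0.12 in the L-AOPP apex, 1.29 ± 0.06 when IAA was added and 0.97 ± 0.03 in whole plants. Of a list of 22 meristem and boundary regulators, 4 had a probe set named for 1 gene. All 4 were called higher in mock apex than in whole plants (limma, adjusted p below 0.05), as were 42.8% of all probe sets tested. The list was chosen with earlier results of these data known, so it is no independent check of the apex label. The summed signal of the 4 was 1534 to 2021 on mock apex arrays and 341 to 409 on whole plant arrays. Most of it came from PHV, with means of 1322 in mock apex and 286 in whole plants. UFO, LAS and CLV3 had 145, 142 and 143 in mock apex and 32.3, 41.4 and 24.6 in whole plants. On the whole plant arrays CLV3 had 2.9, 48.2 and 22.7. For 4 photosynthesis genes the summed signal was 35082 to 37350 in mock apex and 84627 to 96495 in whole plants, so these genes were bright in the dissected part as well. The root hair genes EXPA18 and EXPA7 summed to 44.3 to 57.4 in mock apex and 574 to 786 in whole plants.

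AT3G06220 had signals of 419, 381 and 548 on mock apex replicates 1 to 3 and of 8.4, 4.5 and 6.3 on the whole plant arrays. All 3 whole plant values lay below the floor of 20. The lowest mock apex value was 19.1-fold above the floor, and the group mean on the log2 scale 22.2-fold (log2 4.47). On the 6 L-AOPP arrays it was between 322 and 361, so its signal was above the floor in each apex group.

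AT4G31615 had signals of 171, 135 and 159 on the mock apex arrays and of 4.1, 4.5 and 1.0 on the whole plant arrays. The apex mean was 7.72-fold above the floor (log2 2.95). It was 5.13-fold above with L-AOPP and 7.5-fold with L-AOPP and IAA.

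AT1G26680 had signals of 134, 154 and 134 on the mock apex arrays and of 8.0, 6.6 and 5.5 on the whole plant arrays. The apex mean was 7.01-fold above the floor (log2 2.81), with 6.93-fold in the L-AOPP apex and 9.3-fold in the L-AOPP with IAA apex. As folds over whole plants, these values for the 3 genes are lower bounds, since every whole plant value was under the floor. They do not rank the genes. On the 9 apex arrays the genes stood at the 39.9th to 73.5th percentile of the array.

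**Figure D1:**
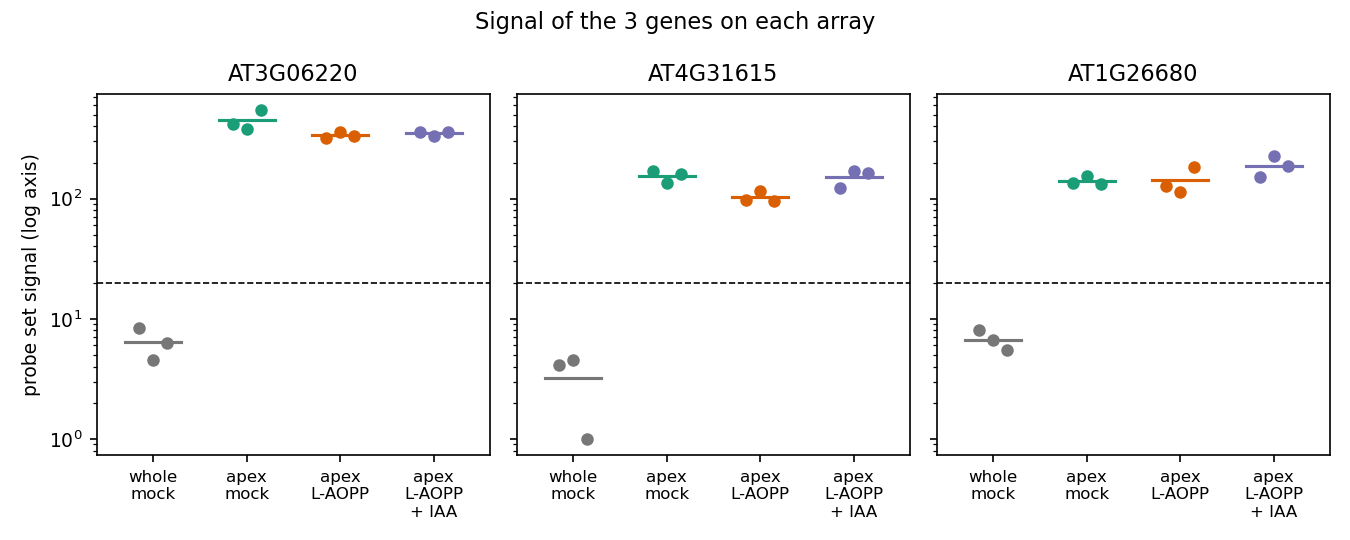
Probe set signal (log axis) of the 3 genes on each of the 12 arrays, with a bar at the mean of each group of 3 and a dashed line at the floor of 20. Every whole plant array lies below the line (1.0 to 8.4) and every apex array above it (95.3 to 548).

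The pattern that all 3 genes share, every whole plant array below the floor and all 9 apex arrays at or above it, was held by 45 of 22746 probe sets (0.198%), which includes these 3. None of the other 26 genes of the REM list with a probe set of their own held it (0 of 26). Of these 26, 11 had all 9 apex arrays at or above the floor. The pattern follows the contrast that chose the 3 genes, and few probe sets hold it. A count of 0 of 26 therefore does not set them apart from the family. For the same contrast, 43.3% of the 15923 probe sets tested were higher in the apex without overlap between the groups, and nothing is read from the 3 genes beside that share, since this contrast chose them.

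Of the REM list, 51 genes long, 29 genes had a probe set that the annotation names for 1 gene. The 26 others give the setting of the family. Without a filter on dim probe sets, 8 of the 26 were higher in mock apex than in whole plants and 2 were lower (limma, Benjamini-Hochberg adjusted p below 0.05), where 29.3% of all 22746 probe sets were higher and 21.5% lower. The 8 are 30.8% of the 26 and the 2 are 7.69%. With the 30% dimmest probe sets left out, a filter that favours genes bright in the apex because 9 of 12 arrays are apex arrays, the same 8 were higher of 11 tested, and 42.8% of all probe sets tested were higher and 25.9% lower. The median log2 difference of the 11 was 0.99, against 0.20 over all probe sets. With quantile normalization all 11 tested were called higher. When the GAPDH ratio was a covariate 3 of the 8 were called, AT2G35310, AT4G34400 and AT5G25475. That ratio differed by 0.81 between these groups (exact permutation p 0.1, the smallest that 3 arrays against 3 allow), and its part in the counts was not tested beyond this. The share of all probe sets called with quantile normalization or with the covariate is not given here. These 2 counts therefore say nothing particular to REM genes.

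AT5G25475 rose from 167 ± 32.4 (SD, n = 3) in whole plants to 658 ± 63.2 in mock apex (log2 2.0 ± 0.13 SE, adjusted p 3.58e-09, limma). AT2G35310, listed as REM23, rose from 49.0 ± 6.65 to 212.5 ± 10.2 (2.13 ± 0.17, adjusted p 2.76e-08). AT4G34400 rose from 31.4 ± 23.2 to 144 ± 2.69 (2.33 ± 0.32, adjusted p 1.09e-05) and AT3G19184 from 22.1 ± 15.5 to 100 ± 32.6 (1.85 ± 0.28, adjusted p 3.09e-05). Each of these 4 had at least 1 whole plant array above the floor, where the 3 genes had none. For AT4G34400 that was 1 array, at 58.1, with the other 2 at 17.2 and 18.8, so its size is bounded by the floor (log2 2.85 without that array). AT3G19184 had 1 whole plant array below the floor, at 4.4. The 2 lower genes were AT5G57720 (log2 -1.17 ± 0.36 SE, adjusted p 0.0218) and AT2G33720 (-0.66 ± 0.23, adjusted p 0.039), both called only without the filter, which left them out as dim. REM22 had 29.3 ± 9.04 in whole plants and 10.6 ± 6.96 in mock apex (adjusted p 0.238), and VERDANDI had means of 1.27 to 13.1 in the 4 groups, all below the floor.

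**Figure D2:**
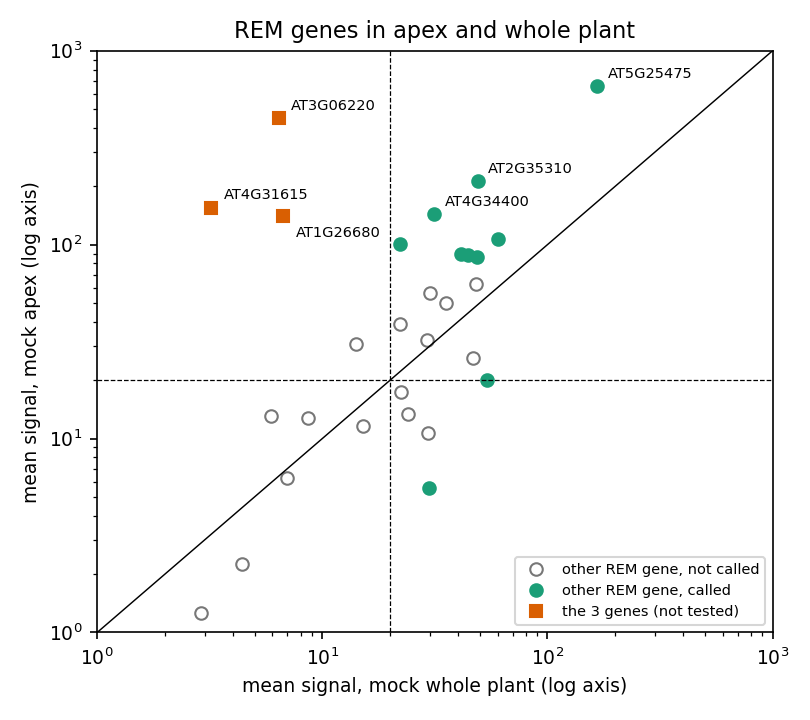
Mean signal over 3 arrays in mock apex against mock whole plant (both log axes) for the 26 other REM genes and the 3 genes, with dashed lines at the floor of 20 and a line of equal signal; filled circles are called without a filter on dim probe sets (adjusted p below 0.05). The 3 genes lie to the left of the floor at 141 to 449 in the apex, while the brightest other REM genes, such as AT5G25475, have whole plant means above it.

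AT4G31615 lies on chromosome 4 in a run of REM genes, next to REM1 on one side and AT4G31620 on the other, and its annotated span overlaps that of REM1. REM1 and AT4G31620 have no probe set named for 1 gene in the annotation, so no value is given for them. AT4G31630, the next of the run, had a signal of 30.9 ± 14.2 (SD, n = 3) in mock apex and 14.2 ± 7.78 in whole plants (log2 0.54 ± 0.33 SE, adjusted p 0.218, limma without a filter). UBP18, which is not on the REM list, ends the run, with 161 ± 21.9 in mock apex and 185 ± 15.8 in whole plants. AT4G31680, a REM gene further along, was below the floor on average in all 4 groups (3.23 to 14.2). Of the REM genes of chromosome 4 named in this paragraph with a probe set of their own, only AT4G31615 had a mean above 100 in mock apex. Nothing is read from this, since AT4G31615 was chosen for a high apex signal. AT4G31640, AT4G31650 and AT4G31660 of the run also have no probe set named for 1 gene. How far the probes of AT4G31615 also bind RNA of the run's other genes was not tested.

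AT3G06220 is on chromosome 3 and its span overlaps that of AT3G06210. The probe set of AT3G06210 had 126 ± 37.0 in mock apex and 151 ± 6.31 in whole plants, which is not the pattern of AT3G06220. AT3G06160, a REM gene 6 places away, had 50.2 ± 9.94 and 35.5 ± 10.0 (log2 0.52 ± 0.30 SE, adjusted p 0.195, limma without a filter). AT1G26680, on chromosome 1, has no gene of the REM list among the 6 neighbours on either side.

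The first comparison within the apex sets plants grown on L-AOPP beside mock plants, to see what the inhibitor changed. It shares the mock apex arrays with the contrast that chose the genes, so genes picked for high values there may read lower in any other group. None of the 3 genes passed the threshold: over all probe sets 1.09% were called higher and 1.31% lower. AT4G31615 had signals of 97.0, 117 and 95.3 on the L-AOPP arrays, all below its mock apex range of 135 to 171. Its mean was 1.5-fold lower (log2 -0.59 ± 0.18 SE, 95% interval -0.98 to -0.20, p 0.00634, adjusted p 0.109, limma). A smaller p was found for 5.81% of the probe sets.

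AT3G06220 had 322.5, 360 and 330 with L-AOPP, below its mock apex range of 381 to 548. Its mean was 1.32-fold lower (log2 -0.40 ± 0.13 SE, 95% interval -0.68 to -0.11, adjusted p 0.135). The difference was -0.25 without mock apex replicate 3, the array with the highest value of this gene, the lowest 25S rRNA control and the highest GAPDH ratio (2.1), and -0.23 when the GAPDH ratio was fitted as a covariate. That 2 of the 3 genes were lower without overlap stands beside 12.4% of all probe sets that were.

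AT1G26680 had 127, 113 and 185 with L-AOPP, on both sides of its mock apex range of 134 to 154. The log2 difference was -0.02 ± 0.20 (SE, adjusted p 0.974), and the 95% interval from -0.45 to 0.42 leaves room for a change of either sign. Its SD was 11.4 in mock apex and 38.1 with L-AOPP, where replicate 3 was the highest.

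Setting L-AOPP with IAA beside L-AOPP alone addresses the effect of supplied auxin. AT4G31615 had 123, 169 and 163 with IAA, all above the L-AOPP range of 95.3 to 117. Its mean was 1.46-fold higher (log2 0.55 ± 0.18 SE, 95% interval 0.16 to 0.94, p 0.00979), and it did not pass over all probe sets (adjusted p 0.241), of which 0.188% were called higher and 0.408% lower. For higher values without overlap the share was 9.37%. The L-AOPP arrays are the same 3 as in the comparison with mock, so the fall and the rise are not independent.

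AT1G26680 had 153, 226 and 187 with IAA, which overlaps the L-AOPP values through L-AOPP replicate 3. The log2 difference was 0.43 ± 0.20 (SE, 95% interval -0.01 to 0.86, adjusted p 0.47), and it was 0.63 without that array and 0.28 without L-AOPP replicate 2. AT3G06220 had 360.5, 332.9 and 360.4 with IAA, of which the second lay inside the L-AOPP range and the other two less than 1 unit above its highest value, 360. Its log2 difference was 0.06 ± 0.13 (95% interval -0.23 to 0.34, adjusted p 0.927), and it was 0.19 when that ratio of GAPDH ends was fitted as a covariate.

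The last comparison sets plants given both compounds beside mock plants. AT4G31615 was at 152 ± 25.3 (SD, n = 3) against 155 ± 18.0 in mock apex (log2 -0.04 ± 0.18 SE, 95% interval -0.43 to 0.35, adjusted p 0.938). AT3G06220 was at 351 ± 15.9 against 449 ± 87.5, lower without overlap (-0.34 ± 0.13, 95% interval -0.62 to -0.05, adjusted p 0.198), as were 11% of all probe sets. Its difference was -0.19 without mock apex replicate 3 and -0.04 with the GAPDH ratio, which differed by -0.49 between these groups, as a covariate. AT1G26680 was at 188 ± 36.5 against 141 ± 11.4 (0.41 ± 0.20, 95% interval -0.03 to 0.84, adjusted p 0.31), with 1 IAA value, 153, just inside the mock range. Without L-AOPP with IAA replicate 2, its highest array, the difference was 0.27. Over all probe sets 0.911% were called higher and 1.51% lower. The 2 comparisons with mock share the mock apex arrays.

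**Figure D3:**
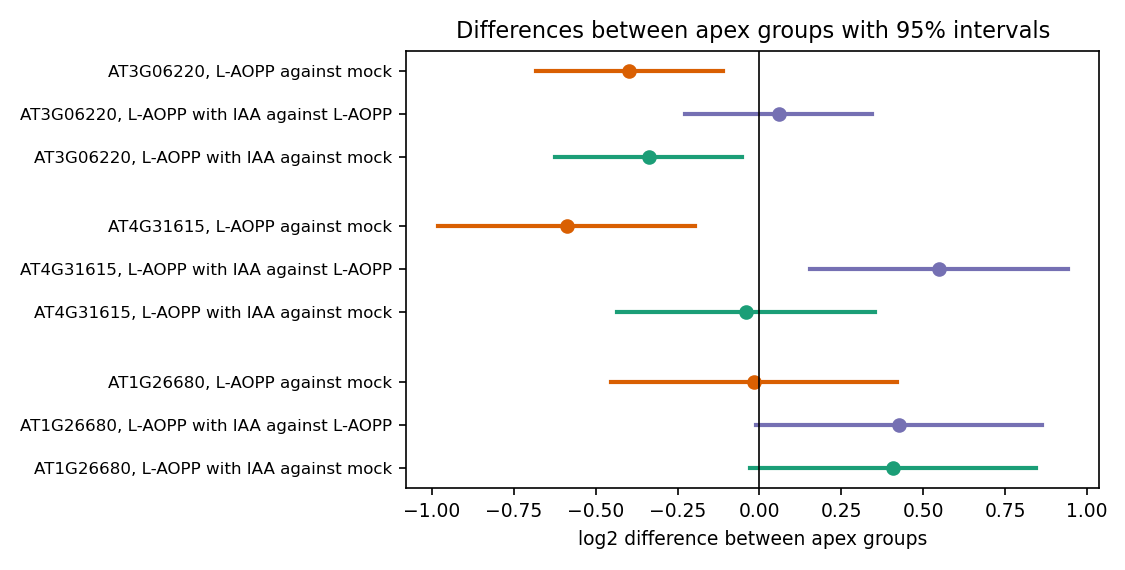
Log2 difference between apex groups (horizontal axis) for each of the 3 genes and 3 comparisons, with 95% intervals from limma on the 9 apex arrays. The intervals of AT4G31615 leave out 0 for the inhibitor (-0.98 to -0.20) and for the addition of IAA (0.16 to 0.94), yet no difference passed after adjustment over 15923 probe sets.

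In exact two-sided permutation tests over the arrays, p was 0.1, the smallest possible, for the 4 differences without overlap, and 0.2 to 1 for the other 5 (adjusted over the 9 tests, 0.225 for the 4). Whether the genes differed from each other in their response was tested on the log2 ratio of 2 genes within each array. With IAA added to L-AOPP the ratio of AT3G06220 to AT4G31615 changed by -0.49 and its groups did not overlap, and against mock the ratios of AT3G06220 and AT4G31615 to AT1G26680 changed by -0.75 and -0.45 without overlap (exact permutation p 0.1 each, adjusted p 0.3 over 9 tests). The other 6 had exact permutation p-values of 0.2 to 0.8. This exact test could not have passed with 3 arrays against 3, so it shows neither that the genes differed in response nor that they responded alike.

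The 4 meristem genes measured also had lower means with L-AOPP than in mock apex, and their values stand beside those of AT4G31615 and AT3G06220. UFO, a floral and boundary F-box gene, had a mean of 145 ± 19.1 (SD, n = 3) in mock apex, 83.4 ± 11.1 with L-AOPP and 145 ± 27.2 with IAA added. LAS, a boundary gene for axillary meristems, had 142 ± 10.6, 101 ± 31.2 and 148 ± 34.7. CLV3, the stem cell peptide, had 143 ± 42.4, 74.0 ± 6.77 and 107 ± 54.3, and PHV, a leaf and meristem polarity gene, had 1322 ± 180, 1103 ± 19.3 and 1229 ± 125. With IAA added CLV3 had 70.9, 81.1 and 169.6, so 1 array set its mean above the L-AOPP range of 68.3 to 81.5.

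None of the 4 was called in these comparisons, the smallest adjusted p being that of UFO under the inhibitor (0.0533) and on addition of IAA (0.103, limma). Their median log2 difference was -0.67 under the inhibitor and 0.50 on addition of IAA, where the medians over all probe sets were -0.01 and 0.00. Both differences of the 4 genes use the same L-AOPP arrays and are not independent. The summed signal of the 4 genes, again mostly that of PHV, was 1344 to 1389 on L-AOPP arrays. It was 1462 to 1787 on L-AOPP with IAA arrays, against the mock range given above. In these bulk samples a smaller share of meristem cells in the cut piece and less RNA per cell cannot be told apart, and the part of the meristem genes in the values of AT4G31615 was not tested.

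**Figure D4:**
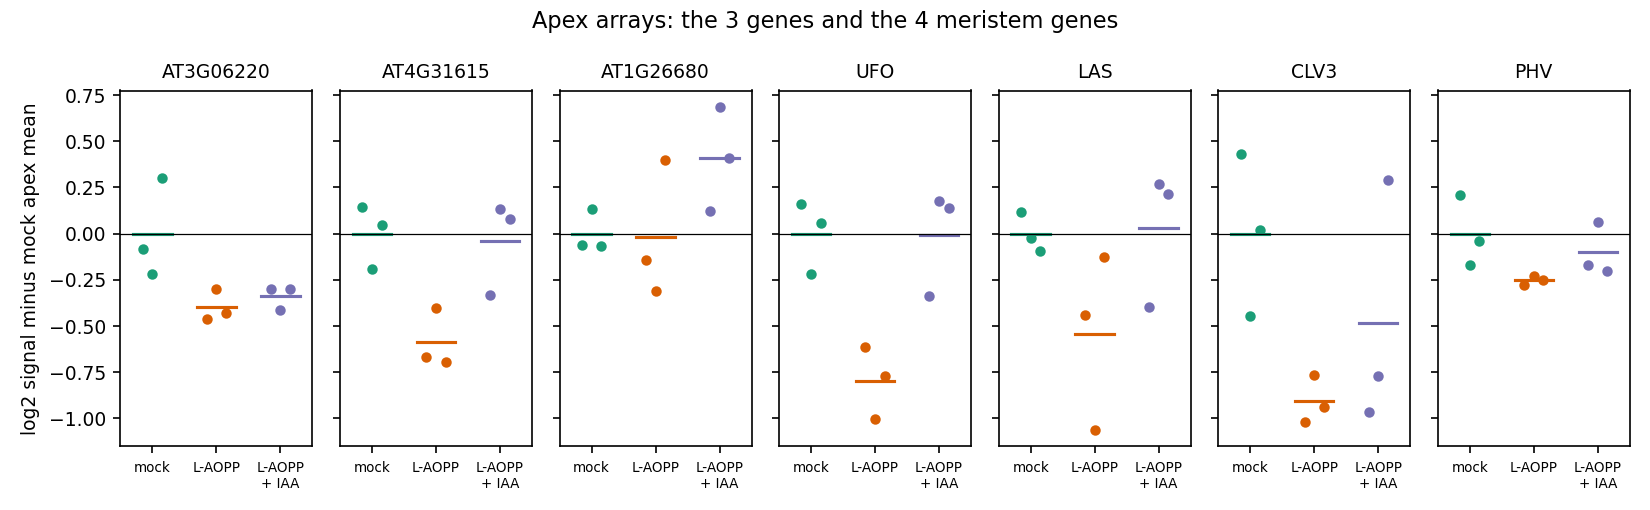
Log2 signal on the 9 apex arrays, less the mean of the mock apex arrays, for the 3 genes and the 4 meristem genes, with bars at group means. AT4G31615 and UFO have means of -0.59 and -0.80 with L-AOPP and lie near 0 with IAA added, while AT3G06220 stays at -0.34 and AT1G26680 is at -0.02 and 0.41. LAS, CLV3 and PHV have means of -0.54, -0.91 and -0.25 with L-AOPP and of 0.03, -0.48 and -0.10 with IAA added. No difference between apex groups was called for any gene shown.

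Of the 12 other REM genes tested within the apex, 0 were called in any of the 3 comparisons, with 1, 0 and 1 at an unadjusted p below 0.05, a level that 17.4%, 11% and 18.1% of all probe sets reached. Their median log2 difference was -0.18 under the inhibitor, 0.07 on addition of IAA and -0.15 with both compounds against mock. AT4G34400 was the lowest by p with L-AOPP (-0.44 ± 0.18 SE, adjusted p 0.223), and AT5G42700 had 0.42 ± 0.20 (adjusted p 0.295) there. With L-AOPP and IAA against mock AT5G42700 had 0.68 ± 0.20 (p 0.00381, adjusted p 0.0836) and AT5G25475 -0.18 ± 0.10 (adjusted p 0.376). For the addition of IAA the genes with the smallest p were AT2G35310 (0.33 ± 0.16, adjusted p 0.468) and AT1G16640 (0.35 ± 0.21, adjusted p 0.598).

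Among the other B3 groups, 0 of 23 ARF genes and 0 of 6 LAV genes had a probe set named for 1 gene, and 5 of 13 RAV genes did, 3 of them tested. NGA2, of the NGATHA genes that act in leaf margins and the style, rose from 73.8 ± 14.9 (SD, n = 3) in whole plants to 165 ± 12.1 in mock apex (log2 1.18 ± 0.18 SE, adjusted p 2.4e-05, limma). It was the 1 called higher of the 3 tested, where 42.8% of all probe sets tested were, and the median of the 3 was -0.41. NGA1 had 76.6 ± 20.6 in mock apex and 100 ± 13.3 in whole plants (-0.41 ± 0.25, adjusted p 0.152). AT3G11580 had 47.4 ± 1.27 and 69.9 ± 26.1 (-0.50 ± 0.28, adjusted p 0.12). NGA3 and NGA4, left out as dim, had 9.03 and 25.7 in mock apex and 41.5 and 27.4 in whole plants. NGA2 was at 121 ± 4.51 with L-AOPP (-0.45 ± 0.15, adjusted p 0.149) and 135 ± 11.6 with IAA added (0.16 ± 0.15, adjusted p 0.783). NGA1 differed from mock by 0.14 ± 0.27 in both inhibitor groups (adjusted p 0.841 and 0.827), and AT3G11580 by -0.02 ± 0.29 on addition of IAA (adjusted p 0.992).

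REM genes are best known from flowers, so flower genes were looked up too. Of 18 listed, 3 had a probe set named for 1 gene. The annotation leaves 8730 probe sets unlisted and gives several genes for 503, so the others may still be on the array. AGL24, a promoter of flowering that is active in the inflorescence meristem, rose from 21.7 ± 21.8 (SD, n = 3) in whole plants to 164 ± 12.8 in mock apex (log2 2.63 ± 0.27 SE, adjusted p 4.05e-07). On whole plant arrays it had 15.5, 46.0 and 3.7, so 1 array set its mean above the floor (log2 3.03 without it) and its size is bounded by the floor. FD, the bZIP partner of the flowering signal FT, had 27.8 ± 20.5 and 62.7 ± 13.9 (0.96 ± 0.37, adjusted p 0.0306), and was not called without whole plant replicate 3, its lowest value at 4.2 (log2 0.64, adjusted p 0.157). AGL42 had a mean below the floor in each apex group and 21.3 in whole plants. Neither AGL24 nor FD was called within the apex, with adjusted p-values from 0.479 to 0.922. The floral organ genes themselves are not analysed here. The cell cycle genes AUR1, AUR2 and PRL (MCM7), with a summed signal of 3961 to 4088 in mock apex and 1422 to 1532 in whole plants, were at 4209 to 4650 with L-AOPP and at 4302 to 4519 with IAA added. None of the 3 was called within the apex, and with L-AOPP the adjusted p was 0.208 for AUR1, 0.171 for AUR2 and 0.986 for PRL.

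Likeness of profile was measured as the root mean square difference over the 12 arrays between log2 signals with the floor, each probe set centred on its own mean, among 13483 other probe sets with 1 gene. For AT4G31615 the nearest were AT2G28790 (distance 0.20), AT1G71691 (0.21), AT4G29030 (0.24) and AT1G23000 (0.25). AT1G71691 had signals of 213 ± 12.9 (SD, n = 3) in mock apex, 169 ± 27.5 with L-AOPP, 240 ± 14.2 with IAA added and 38.0 ± 3.89 in whole plants. For AT1G26680 they were AT1G33790 (0.18), AT3G05600 (0.21), AT1G06420 (0.24) and bZIP58 (0.26). AT1G33790 had 1456 ± 24.2 in mock apex, 1450 ± 27.9 with L-AOPP, 2040 ± 183 with IAA added and 212 ± 25.6 in whole plants.

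For AT3G06220 the nearest were AT1G62500 (0.27), AT1G60060 (0.46), AT5G11930 (0.48) and AT5G58390 (0.49). AT1G62500 had 4463 ± 414 in mock apex, 3947 ± 303 with L-AOPP, 3616 ± 270 with IAA added and 302 ± 48.0 in whole plants. AT4G31615 and AT1G26680 were 0.33 apart, at rank 37 and 16 of each other's lists, and both lay farther from AT3G06220 (0.69 and 0.67). These distances include the mock apex and whole plant arrays that chose the 3 genes, so their nearness to each other is no independent support. The larger distances to AT3G06220 are not read as a difference, since sizes over the floor do not rank the genes. The median distance to all probe sets was 1.22 to 1.84. The step between whole plant and apex makes up most of each profile, and for the 3 genes that step is bounded by the floor, so a larger true step would give other neighbours.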

How the data were processed

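Transcripts were measured on 12 arrays in 4 groups of 3, grouped by their titles. The authors deposited linear signal intensity per probe set, made with MAS5 per the submitters' processing notes (version not given), and the values show a mean, without the lowest and highest 2%, of 500.05 to 500.06 on every array. The array number limits precision. From these, 64 control probe sets were set aside, a floor of 20 and log2 applied, and the dimmest 30% left out, leaving 15923 of 22746. limma 3.58.1 in R 4.3.3 (eBayes with trend, two-sided) was fitted to the 9 apex arrays, or to all 12 for apex against whole plant. The apex fit leaves out whole plants because their values for the 3 genes are all at the floor and have no spread. A call is a Benjamini-Hochberg adjusted p below 0.05 over all probe sets tested. The script was tested on simulated data.

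Names came from the platform annotation (13513 probe sets with 1 gene, 13484 matched to a locus of TAIR10.1; 503 with several; 8730 not listed). From each gene list up to 4 called genes with the largest difference are named, or the 2 with the smallest p, with the 4 nearest profiles per gene; AT5G57720, AT2G33720, REM22, VERDANDI and all meristem, floral and cell cycle genes beyond that were named after their values were seen. The genes and lists were chosen with earlier results of these data known. Replicate numbers did not pair arrays: deviations of same-numbered arrays correlated at -0.20 to 0.12 (median -0.01, 18 pairs). Alternatives covered floor, scaling, filter, arrays, trend, weights, the GAPDH ratio, a replicate block and leaving out each array. Promoter motifs were not searched because no sequence was used here.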

Additional observations from a re-analysis of the deposited data

How the results depend on the processing

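With 3 arrays a group, no difference of the 3 genes within the apex was called under any alternative run, and the 0 calls among other REM genes there held too. Without each array in turn the lowest adjusted p of a member was 0.0644, for AT3G06220 with L-AOPP without mock apex replicate 2. Signs changed for 2 differences near 0. AT1G26680 with L-AOPP (-0.02) was 0.0025 with median centring and -0.23 to 0.13 without each array. AT4G31615 with L-AOPP and IAA against mock (-0.04) was 0.14 with the GAPDH covariate and -0.14 to 0.11 without each array. The cause was not tested. Leaving out whole plant arrays for AT4G34400, AT3G19184, AGL24 and FD was chosen after seeing the data, and FD alone lost its call.

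The replicate block, which the numbers do not bear out as a pairing, changed no call: AT4G31615 had -0.59 (adjusted p 0.157; 0.086 to 0.467 over all alternatives) with L-AOPP and 0.55 (0.321; 0.127 to 0.538) for added IAA. AT4G31615 and AT1G26680 were too dim for the filter on the lowest 50%, which gives no value for them.

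Against whole plants the log2 sizes with no floor were 6.16 for AT3G06220, 5.87 for AT4G31615 and 4.41 for AT1G26680, since values under 20 then count. With log2(signal + 20) they were 4.14 for AT3G06220 and 2.59 for AT1G26680. Of the other REM genes, 8 were higher, 11 with quantile normalization, 3 with the GAPDH covariate and 1 (of 1 tested) with the filter on the lowest 50%. None was lower, except 2 with no filter. Shares over all probe sets are given only for the main setting and with no filter, so the other counts are not read as particular to REM genes. Signals under the floor set the depth limit: they show neither absence nor order.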
